A study of Mus musculus with 4 samples.

Results

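The AP-1 and BATF factors described here are 10 mouse genes of the basic leucine zipper class, taken by symbol from the tables of 2 RNA sequencing experiments on T cells: the Fos subfamily (Fos, Fosb, Fosl1, Fosl2), the Jun subfamily (Jun, Junb, Jund), the BATF factors (Batf, Batf3) and Atf3. They are 10 of 23259 genes in all, and all 10 have a row in the table of transduced cells, against 7 of 10 in the table of regulatory T cells (Treg). In the first experiment splenic Treg were sorted by a human CD2 reporter at Foxp3 from Balb/c mice, either given 3% dextran sulfate sodium (DSS, a polymer that injures the colon epithelium) in drinking water over 7 days or left untreated. All mice of this experiment carried the reporter. In the second, naive CD4 T cells from wild-type C57BL6 mice received either a Sox12 vector or a mock vector by transduction. Sox12 is a SoxC transcription factor. The labels do not say how those cells were stimulated or cultured. Every group is 1 library, so no difference below has a replicate check and no test was run. The labels do not give the mice behind each library.

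Jun and Fos proteins pair through their leucine zippers and bind DNA as the dimer called AP-1. Jun proteins can pair with each other, whereas Fos proteins need a partner. In T cells, signals of the antigen receptor and CD28 reach AP-1 through MAP kinases, and AP-1 then binds composite sites with NFAT, as at the interleukin-2 gene. Batf and Batf3 lack the activation domains of Fos, pair with Jun proteins and bind composite sites with IRF4 or IRF8. Batf is known in T cells for its part in Th17, follicular helper and effector Treg programmes. Batf3 is best known from dendritic cells. Atf3 is a stress-induced relative that pairs with Jun proteins and often represses. Fos, Fosb, Jun, Junb and Atf3 are immediate early genes, whose RNA appears quickly after a stimulus, including the handling of cells, and decays quickly.

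The promoters of the 4 members Junb, Fos, Jun and Batf are shown because Junb and Fos stood furthest below the mock vector and Jun and Batf furthest above it. Each is the RefSeq window on GRCm38.p6 from 250 bases before to 50 bases after the annotated start, 5′ to 3′ on the gene's strand. Capitals mark the motif letters described next, TGACG and TATAAA in Junb and Fos, TGACATCA in Jun and TGACG in Batf.
Junb, chr8:84978699-84978998, minus strand: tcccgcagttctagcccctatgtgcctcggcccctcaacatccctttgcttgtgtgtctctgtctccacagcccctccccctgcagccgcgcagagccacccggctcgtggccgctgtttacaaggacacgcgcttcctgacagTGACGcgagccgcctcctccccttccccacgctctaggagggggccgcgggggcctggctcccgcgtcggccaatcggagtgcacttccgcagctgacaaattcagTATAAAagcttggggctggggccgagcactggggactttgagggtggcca
Fos, chr12:85473640-85473939, plus strand: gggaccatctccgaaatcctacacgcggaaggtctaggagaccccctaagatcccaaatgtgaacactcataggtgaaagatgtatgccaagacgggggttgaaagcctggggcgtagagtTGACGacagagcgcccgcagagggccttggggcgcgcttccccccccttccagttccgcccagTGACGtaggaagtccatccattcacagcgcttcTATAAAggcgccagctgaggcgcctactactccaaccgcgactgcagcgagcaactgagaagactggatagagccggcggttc
Jun, chr4:95052173-95052472, minus strand: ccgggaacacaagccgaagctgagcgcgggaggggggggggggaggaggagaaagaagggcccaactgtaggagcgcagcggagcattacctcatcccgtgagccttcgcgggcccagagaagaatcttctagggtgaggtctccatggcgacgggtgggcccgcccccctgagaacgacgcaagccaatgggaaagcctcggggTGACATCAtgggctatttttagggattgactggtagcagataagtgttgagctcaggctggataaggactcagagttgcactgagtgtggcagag
Batf, chr12:85686470-85686769, plus strand: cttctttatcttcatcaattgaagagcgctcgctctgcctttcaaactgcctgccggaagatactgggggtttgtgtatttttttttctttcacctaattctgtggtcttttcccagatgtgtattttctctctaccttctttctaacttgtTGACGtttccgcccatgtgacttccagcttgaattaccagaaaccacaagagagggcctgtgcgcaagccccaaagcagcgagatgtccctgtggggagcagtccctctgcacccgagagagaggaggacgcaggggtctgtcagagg

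Of the 10 members 9 had a promoter in the RefSeq table, all but Fosl1. The letters TGACG, the core of a cAMP response element, were found on either strand in 5 of the 9, namely Fos, Fosb, Junb, Batf and Atf3, against 20.8% of all 32851 promoters of the same length. Counting from the annotated start as position 1, Fos has it at -129 and -66, Junb at -106, Batf at -98, Fosb at -60 and, on the other strand, Atf3 at -7. The letters TATAAA on the gene's strand were in Fos and Junb, against 8.32% of all promoters. They begin at position -33 in Fos and at position 1 in Junb. All positions rest on the annotated start of each gene, which was not checked here, so they may not be equivalent between genes. Jun holds TGACATCA, a variant AP-1 site through which Jun is known to act on its own gene, at position -45, and 3.62% of all promoters hold it. These 3 motifs were added after the sequences had been read, so their counts here are description only. Base composition differs as well. Over all promoters the median content of G and C was 52.7%. Every member window but those of Batf (49.7%) and Jund (46.7%) was above that, up to 75.7% in Batf3. The shares of promoters were not matched for composition. The AP-1 letters TGANTCA (7.81% of promoters), the full cAMP response element TGACGTCA (1.79%) and the serum response CArG box (1.63%) were in none of the 9 windows on either strand. The windows reach 250 bases before the start, so sites further upstream were not searched. The Sox core ACAAT was in Jund alone, against 31.0% of promoters. ACAAT is rich in A and T, and Jund has the lowest content of G and C of the 9 windows. The low count was therefore not set against promoters of like composition. TGACG also lies within every TGACGTCA, so those counts overlap. Members that were higher and members that were lower with the Sox12 vector both hold TGACG.

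The transduced libraries held about 45.0 M fragments with the Sox12 vector and 42.9 M with the mock vector, as recovered from the low values of the table. The depth of the Treg libraries is unknown. Sox12 had 829 FPKM (fragments scaled to transcript length and library size) with its vector and 1.56 FPKM with the mock vector. It had 1.52 FPKM in DSS Treg and 0.715 FPKM in untreated Treg. These Treg values lie near the limit of listing, where the higher value of a gene is at least 1.00 FPKM, and their counting error is unknown. Of the 7 Treg markers all were present in both Treg libraries, with a summed level of 772 FPKM in DSS Treg and 780 FPKM in untreated Treg. After transduction, Foxp3 was at 127 FPKM with the Sox12 vector and 20.9 FPKM with the mock vector. Of the 7 Treg markers as a whole, 3 were higher and 4 lower with the Sox12 vector. Their summed level was 1426 FPKM with the Sox12 vector and 1438 FPKM with the mock vector. The 7 listed markers of T cells were all lower with the Sox12 vector (1400 and 1971 FPKM summed with the Sox12 and the mock vector), and all 8 markers of NK and CD8 T cells were higher (424 and 141 FPKM).

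In CD4 T cells with the Sox12 vector, Junb, Fos and Atf3 were lower than with the mock vector and Jun, Batf and Batf3 were higher. The ratios ran from 0.501 for Junb to 1.80 for Jun. A change is given as the difference of log2(FPKM + 1), and a gene counts as 2 times different when that difference is at least 1. By that rule 0 of the 9 members averaging 1 FPKM or more were higher and 0 were lower, against 4.85% and 1.91% of 10822 genes. The counting intervals of the Junb and Fos changes reach the limit, so the count of 0 lower is not resolved. With a limit of 1.5 times, chosen after the values were seen, 1 member was higher (Jun, against 10.1% of genes) and 3 were lower (Junb, Fos and Atf3, against 6.88% of genes). In all, 3 members were higher and 6 lower, with a median change of -0.22, beside -0.01 over all genes past the filter. These directions held under each of the scalings tried.

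**Figure D1:**
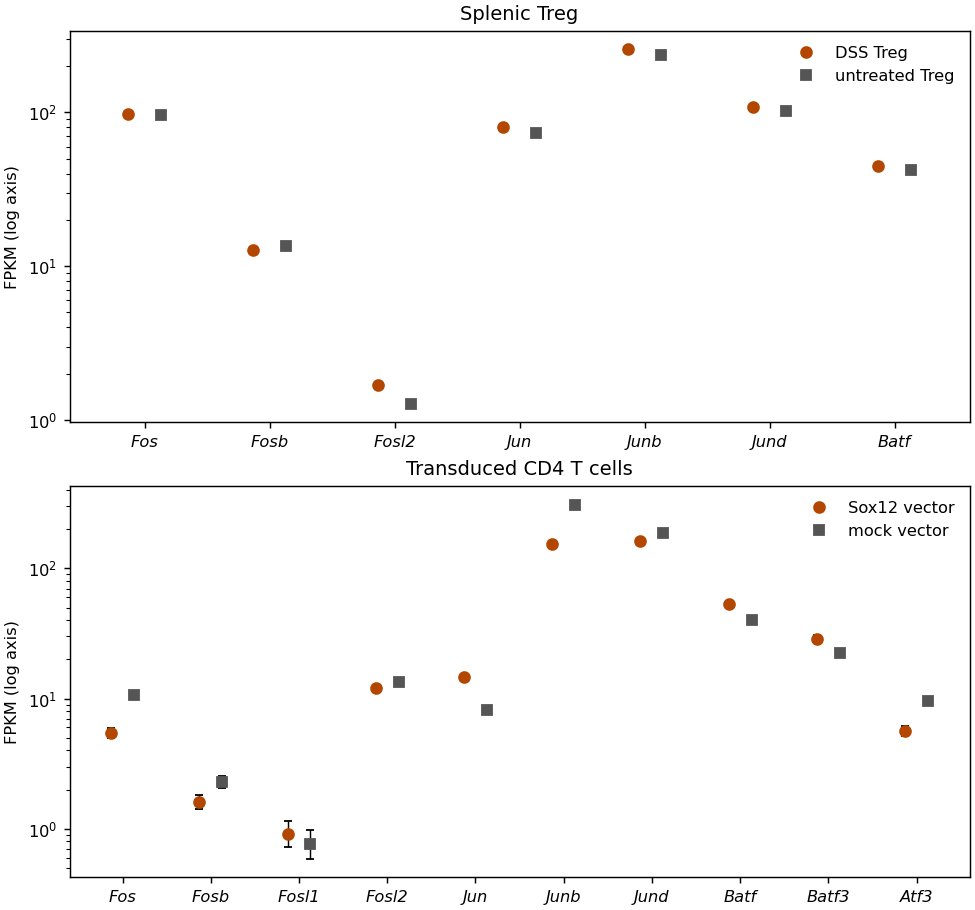
Level of each member in FPKM on a log axis, DSS Treg beside untreated Treg (upper panel) and Sox12 vector beside mock vector (lower panel), 1 library per point; bars in the lower panel are 95% intervals for counting error, mostly smaller than the points. The Treg pairs lie close together, and Junb, Fos, Jun and Atf3 are the pairs furthest apart in the lower panel.

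The Jun subfamily split. Junb, which in CD4 T cells is known as a partner of Batf, had 155 FPKM with the Sox12 vector and 309 FPKM with the mock vector, a ratio of 0.501 and a change of -0.99. The 95% interval of that ratio for counting error alone is 0.490 to 0.512, and the change ranked 211 from the lowest of the 10822 genes. Junb thus lay just short of the 2-fold limit, but the counting interval of its change, -1.02 to -0.96, spans that limit. With the 75th percentiles of both libraries made equal Junb passed the limit, at -1.03. Jun, the founding member and a strong activator, had 14.6 FPKM with the Sox12 vector and 8.10 FPKM with the mock vector, a ratio of 1.80 (1.67 to 1.94 for counting error) and a change of 0.78. Its change ranked 765 from the highest. Jund, the member that many resting cells make steadily, had 162 FPKM with the Sox12 vector and 188 FPKM with the mock vector, a ratio of 0.858 (0.838 to 0.880).

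The Fos subfamily was low in both transduced libraries. Fos had 5.43 FPKM with the Sox12 vector and 10.7 FPKM with the mock vector, a ratio of 0.506 (0.454 to 0.564 for counting error) and a change of -0.87 that ranked 290 from the lowest. Fosb, its close relative, had 1.60 FPKM with the Sox12 vector and 2.29 FPKM with the mock vector, a ratio of 0.701 (0.598 to 0.823). Fosl2, also called Fra-2, is a slower member without the strong activation domain of Fos. It had 12.0 FPKM with the Sox12 vector and 13.4 FPKM with the mock vector, a ratio of 0.895 (0.854 to 0.937). Fosl1, also called Fra-1, had 0.914 FPKM with the Sox12 vector and 0.763 FPKM with the mock vector and did not pass the filter. It rested on about 77 and 61 fragments, and its ratio has a counting interval of 0.849 to 1.71, so a difference was not detectable at this depth. Fosl2 was above Fos in both libraries.

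Batf and Batf3 were higher with the Sox12 vector by similar ratios. Batf had 53.3 FPKM with the Sox12 vector and 40.4 FPKM with the mock vector, a ratio of 1.32 (1.24 to 1.41 for counting error). Batf3 had 28.9 FPKM with the Sox12 vector and 22.5 FPKM with the mock vector, a ratio of 1.29 (1.17 to 1.42). The 2 counting intervals overlap. Atf3 had 5.62 FPKM with the Sox12 vector and 9.61 FPKM with the mock vector, a ratio of 0.585 (0.522 to 0.654) and a change of -0.68 that ranked 546 from the lowest. Batf3 is also a marker of conventional dendritic cells, and the dendritic cell list summed to 3.51 FPKM with the Sox12 vector and 3.27 FPKM with the mock vector. Nearly all of it was Zbtb46, and Clec9a and Siglech were at 0 in both libraries.

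**Figure D2:**
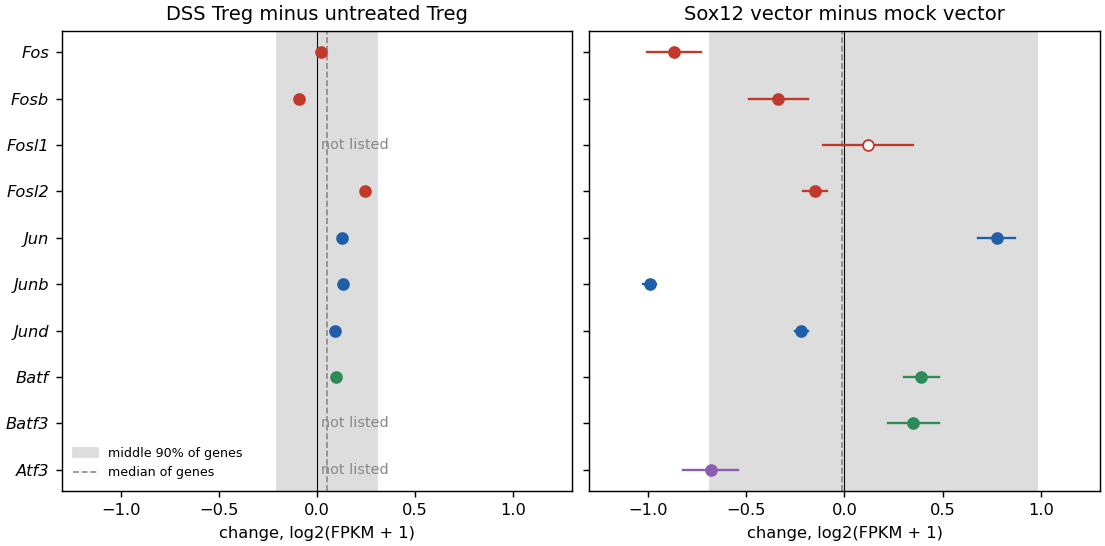
Change of each member on the log2(FPKM + 1) scale for DSS minus untreated Treg (left) and Sox12 minus mock vector (right); grey bands span the middle 90% of genes, dashed lines their median, horizontal bars in the right panel are 95% counting intervals, colours mark the subfamilies and the open point is Fosl1, below the filter. Junb and Fos lie below the grey band on the right, and every listed member lies inside it on the left.

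In DSS Treg the members differed little from untreated Treg. Of the 7 listed members 6 were higher and 1 was lower, with a median change of 0.10, beside 0.05 over all genes past the filter. Fos, with the smallest of the 6 higher changes, ranked 6279 from the highest of 10545 genes, so most genes were higher as well. By the 2-fold rule 0 were higher and 0 lower, against 0.19% and 0.0759% of 10545 genes. Junb, the most abundant, had 258 FPKM in DSS Treg and 235 FPKM in untreated Treg. Jund had 109 FPKM in DSS Treg and 102 FPKM in untreated Treg, and Jun had 79.8 FPKM in DSS Treg and 73.0 FPKM in untreated Treg. The ratios of these Jun genes lay between 1.07 and 1.10. Fos had 97.1 FPKM in DSS Treg and 95.7 FPKM in untreated Treg, a change of 0.02 that turned negative under each of 3 other scalings. Fosb had 12.7 FPKM in DSS Treg and 13.6 FPKM in untreated Treg and was the 1 lower member. Batf had 45.1 FPKM in DSS Treg and 42.1 FPKM in untreated Treg. Fosl2 had 1.69 FPKM in DSS Treg and 1.27 FPKM in untreated Treg, the highest ratio at 1.33, at the lowest level of the 7. Fosl1, Batf3 and Atf3 have no row in the Treg table, where the higher value of a listed gene is at least 1.00 FPKM, and are not analysed here in Treg.

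Markers of other cells moved with the DSS library. The basophil and mast cell list summed to 33.6 FPKM in DSS Treg and 10.9 FPKM in untreated Treg. The erythroid list summed to 656 FPKM in DSS Treg and 430 FPKM in untreated Treg, with 9 of 9 members higher, and the neutrophil or myeloid precursor list to 35.0 FPKM in DSS Treg and 22.0 FPKM in untreated Treg. Within that list the 4 granule protein genes past the filter (Mpo, Prtn3, Elane and Ctsg) were higher. S100a8 (0.678 FPKM in DSS Treg and 1.08 FPKM in untreated Treg) and S100a9 (0.449 FPKM in DSS Treg and 1.19 FPKM in untreated Treg) were below the filter and lower. The summed levels of the macrophage list (16.9 FPKM in DSS Treg and 17.8 FPKM in untreated Treg) and the B cell list (31.8 FPKM in DSS Treg and 38.9 FPKM in untreated Treg) were lower, but their genes were mixed, with 2 of 3 macrophage markers and 1 of 3 B cell markers higher. The 4 listed NK or CD8 T cell markers were all lower (26.0 FPKM summed in DSS Treg and 30.1 FPKM in untreated Treg). Their part in the small differences of the AP-1 genes was not tested. In bulk RNA, fewer cells of a type and less RNA per cell cannot be told apart.

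**Figure D3:**
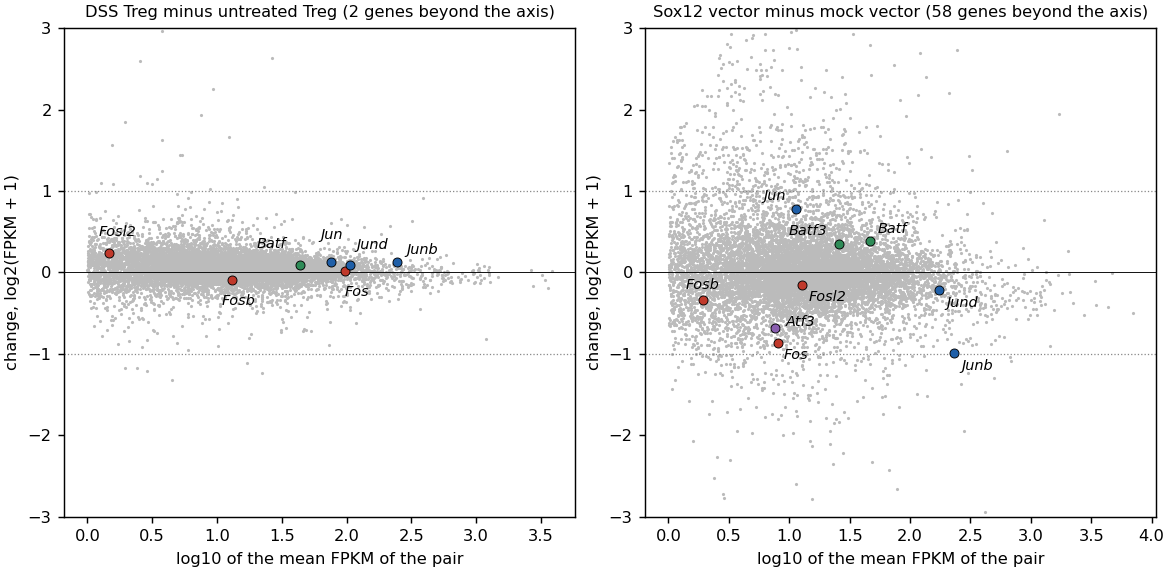
Change on the log2(FPKM + 1) scale against log10 of the mean FPKM of the pair for every gene past the filter (grey) with the members named and coloured by subfamily, DSS minus untreated Treg (left) and Sox12 minus mock vector (right); dotted lines mark changes of 1 and -1. Junb lies on the lower dotted line at a high level on the right, while all 7 members hug the zero line on the left.

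FPKM is per length, so levels of different members are set side by side within a library. Other differences between genes, such as overlap with genes on the other strand, were not corrected for here. In both Treg libraries the order of the 7 members was Junb, Jund, Fos, Jun, Batf, Fosb and Fosl2. With the Sox12 vector the order was Jund, Junb, Batf, Batf3, Jun, Fosl2, Atf3, Fos, Fosb and Fosl1. With the mock vector Junb stood above Jund, and Jun stood below Fosl2, Fos and Atf3. The counting intervals of Fos and Atf3 overlap in both libraries, so their order is not resolved. Those of Jund (159 to 164 FPKM) and Junb (152 to 157 FPKM) with the Sox12 vector do not overlap. Counting error leaves out the preparation of the library and reads of the genes that overlap Jund and Junb, named below.

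A ratio of 2 members within a library does not depend on how the library was scaled. Junb over Jun was 10.6 with the Sox12 vector and 38.1 with the mock vector. Junb over Batf was 2.90 with the Sox12 vector and 7.65 with the mock vector, and Fos over Jun was 0.373 with the Sox12 vector and 1.33 with the mock vector. Batf over Batf3 hardly moved, at 1.84 with the Sox12 vector and 1.80 with the mock vector. In Treg, Junb over Jun was 3.24 with DSS and 3.23 without, and Junb over Batf 5.73 with DSS and 5.60 without. The Junb to Jun balance thus differed between the vectors and was nearly equal between the Treg libraries.

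Summed over the members, the Jun genes made up 75.4% of the FPKM with the Sox12 vector and 83.5% with the mock vector. Batf and Batf3 made up 18.8% with the Sox12 vector and 10.4% with the mock vector, and the Fos genes 4.54% with the Sox12 vector and 4.49% with the mock vector. These shares also move with the total. Batf and Batf3 summed to 82.2 FPKM with the Sox12 vector and 62.8 FPKM with the mock vector. The Fos genes summed to 19.9 FPKM with the Sox12 vector and 27.1 FPKM with the mock vector. All 10 members together came to 438 FPKM with the Sox12 vector and 605 FPKM with the mock vector, and Junb alone accounts for most of that difference. Of the 7 members listed in Treg, the Fos genes made up 18.5% in DSS Treg and 19.6% in untreated Treg. Their sum was 111.5 FPKM in DSS Treg and 110.5 FPKM in untreated Treg. The Treg and the transduced cells differ in strain and cell type, and their tables were normalized separately, so their levels are not compared further.

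Several members lie next to each other in the RefSeq annotation of GRCm38.p6. On chromosome 12 Fos, Jdp2 and Batf are consecutive protein-coding genes, and on chromosome 1 Batf3 and Atf3 are separated by Fam71a alone. Both groups hold members that differed in opposite directions between the vectors. Fos was lower and Batf higher, and Jdp2, a repressor that pairs with Jun, had 2.23 FPKM with the Sox12 vector and 1.87 FPKM with the mock vector. Atf3 was lower and Batf3 higher, with Fam71a at 0 in both libraries. Nenf, on the other side of Atf3, had 9.41 FPKM with the Sox12 vector and 18.7 FPKM with the mock vector. Next to Junb on chromosome 8, the peroxiredoxin gene Prdx2 had 216 FPKM with the Sox12 vector and 118 FPKM with the mock vector.

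In the GENCODE vM21 annotation, exons of 4 members overlap a gene on the other strand, namely Jun (Junos), Jund (Gm11175), Fosl1 (Ccdc85b) and, through a short non-coding transcript, Junb (Prdx2). The libraries keep strand, per the labels' protocols, but whether strand was used in the quantification is not given in the sources used here. Reads of these members and their partners may therefore be mixed.

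Other parts of the pathway were followed in 9 lists. Between the vectors, counts past the 2-fold limit in these lists stand beside 4.85% of all genes higher and 1.91% lower. With the Sox12 vector the targets with NFAT and AP-1 composite sites were lower in 9 of 10 cases, with 2 of these past the 2-fold limit and a median change of -0.43. The growth factor gene Il2 had 8.40 FPKM with the Sox12 vector and 35.1 FPKM with the mock vector, and Il5, an eosinophil growth factor, had 7.62 FPKM with the Sox12 vector and 17.9 FPKM with the mock vector. The exception was Ifng, the gene of interferon gamma, with 191 FPKM with the Sox12 vector and 41.3 FPKM with the mock vector. Of genes known to depend on Batf, 4 were higher and 6 lower past the filter (median -0.22). Among them Prdm1, Il10 and Il1rl1, at low levels, had plain ratios of 2.90, 2.84 and 4.15, with changes short of 1 with the pseudocount. Gzmb, a cytotoxic granule protease, had 2735 FPKM with the Sox12 vector and 708 FPKM with the mock vector. The higher NK and CD8 T cell markers stand beside these values of Ifng and Gzmb, and their part was not tested. Of classical AP-1 targets 3 were higher and 4 lower. Spp1, which encodes osteopontin, had 229 FPKM with the Sox12 vector and 42.5 FPKM with the mock vector, whereas the adhesion receptor Cd44 had 53.0 FPKM with the Sox12 vector and 108 FPKM with the mock vector.

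The DNA-binding partners differed gene by gene. Irf4, the partner of Batf at composite sites, had 45.3 FPKM with the Sox12 vector and 96.7 FPKM with the mock vector, a change of -1.08. It was the 1 of 9 partners past the 2-fold limit, beside 1.91% of all genes lower. Irf8 had 82.4 FPKM with the Sox12 vector and 77.1 FPKM with the mock vector. The median of the partners was -0.07, with 4 higher and 5 lower. Of 26 other bZIP genes 23 passed the filter, 9 of them higher and 14 lower. Their median of -0.05 turned positive with equal totals without the 20 highest genes. Bach1, a repressor that competes for related sites, had 5.77 FPKM with the Sox12 vector and 1.48 FPKM with the mock vector. It was the 1 of these 23 at least 2 times higher, beside 4.85% of all genes.

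Of 21 genes of the MAP kinase route above AP-1, 13 were higher and 8 lower with the Sox12 vector, with a median of 0.05 and 0 past a change of 1 on the log2(FPKM + 1) scale. Mapk8, which encodes the Jun kinase JNK1, had 10.7 FPKM with the Sox12 vector and 5.29 FPKM with the mock vector. Its plain ratio was 2.02, and with the pseudocount its change was 0.89. At the other end Map2k3, a kinase of the p38 route, had 33.7 FPKM with the Sox12 vector and 53.7 FPKM with the mock vector, a change of -0.66. Prkcq, a protein kinase C of the T cell receptor route, had 78.7 FPKM with the Sox12 vector and 43.4 FPKM with the mock vector. Of 8 serum response factor genes past the filter 5 were higher and 3 lower (median 0.10). Elk3 had 22.8 FPKM with the Sox12 vector and 26.5 FPKM with the mock vector, and Mef2d had 32.8 FPKM with the Sox12 vector and 28.9 FPKM with the mock vector. Of 11 regulators of AP-1 proteins or their RNAs 9 were higher and 2 lower (median 0.26). Zfp36l1, which binds AU-rich RNA and promotes its decay, had 104 FPKM with the Sox12 vector and 56.4 FPKM with the mock vector. Ndfip1, an activator of the Junb ubiquitin ligase Itch, had 167 FPKM with the Sox12 vector and 255 FPKM with the mock vector.

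Early response genes, which also mark handling of the cells, were lower in 13 of 20 cases with the Sox12 vector (median -0.22). Rgs1, a regulator of G protein signalling, had 51.5 FPKM with the Sox12 vector and 109 FPKM with the mock vector. The heat shock genes Hspa1a (1.39 and 3.82 FPKM with the Sox12 and the mock vector) and Hspa1b (1.36 and 3.80 FPKM) were also lower by 2 times, and as near-identical copies they may share reads. Socs3, a feedback inhibitor of cytokine signals, had 23.9 FPKM with the Sox12 vector and 7.72 FPKM with the mock vector. The part of handling in the lower Fos, Junb and Atf3 was not tested.

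**Figure D4:**
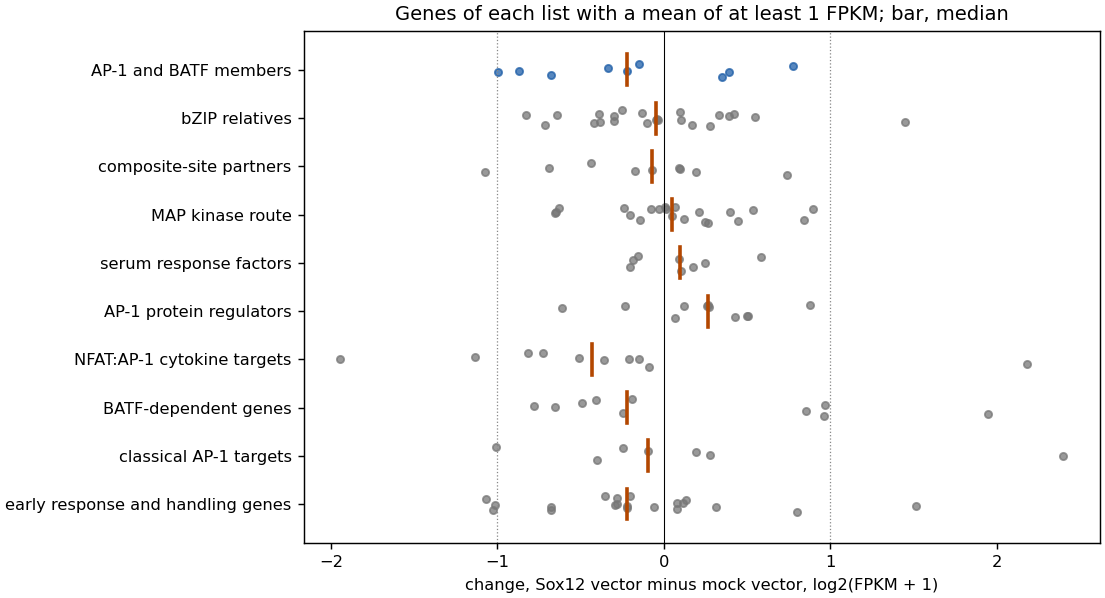
Change on the log2(FPKM + 1) scale, Sox12 minus mock vector, of each gene averaging 1 FPKM or more in the AP-1 and BATF members (blue) and 9 lists of related genes (grey); orange bars are medians, dotted lines mark changes of 1 and -1, and the vertical scatter has no meaning. The NFAT and AP-1 cytokine targets have the lowest median, -0.43, with Ifng as the single gene to the right of 0.

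In DSS Treg 0 genes of these 9 lists were past a change of 1 in either direction on the log2(FPKM + 1) scale, beside 0.19% of all genes higher and 0.0759% lower. Plaur, the urokinase receptor gene among the classical AP-1 targets, had 1.69 FPKM in DSS Treg and 0.369 FPKM in untreated Treg. Its plain ratio was 4.57, and with the pseudocount its change was 0.97. Of the bZIP relatives 19 were higher and 4 lower (median 0.14), and of the regulators of AP-1 proteins or RNAs 10 were higher and 1 lower (median 0.08). Most genes past the filter were also higher in DSS Treg, with a median change of 0.05. Zfp36l2 had 532 FPKM in DSS Treg and 473 FPKM in untreated Treg, and Zfp36, which acts on AU-rich RNAs likewise, had 201 FPKM in DSS Treg and 178 FPKM in untreated Treg. Of the genes that depend on Batf 8 were higher and 1 lower (median 0.18), with the inhibitory receptor Ctla4 at 146 FPKM in DSS Treg and 128 FPKM in untreated Treg. Of the 5 listed NFAT and AP-1 targets 4 were lower (median -0.16), with Il2ra, the high-affinity chain of the IL-2 receptor, at 67.2 FPKM in DSS Treg and 82.0 FPKM in untreated Treg. The early response genes were higher in 6 and lower in 12 cases (median -0.03). The remaining lists had medians of 0.15 (classical targets), 0.05 (MAP kinase route), 0.03 (serum response factors) and 0.004 (composite-site partners). The last 2 turned negative under other scalings.

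The genes whose pair of changes lay nearest to that of Junb, the member that differed most between the vectors, were sought in both tables over 6867 genes averaging 5 FPKM or more. They were Eea1, an early endosome protein, Cln6, an endoplasmic reticulum membrane protein, and Ephx1, a microsomal epoxide hydrolase. Eea1 had 12.4 FPKM with the Sox12 vector and 25.5 FPKM with the mock vector, and 9.56 FPKM in DSS Treg and 8.60 FPKM in untreated Treg. Likeness here is the distance over 2 changes from 4 libraries, so many genes can come as near.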

How the data were processed

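Total RNA of 4 libraries was prepared with a kit that keeps strand, as the labels say. The authors deposited FPKM and their fold ratio for Treg, and log2(FPKM + 1) values and their log2 difference for transduced cells. The submitters' processing notes name Cufflinks and mm9; aligner and annotation: not given in the sources used here. Recomputed changes differed from the deposited ones by at most 0.000448 (relative) and 5e-10. Rows whose names a spreadsheet had turned into dates were left out, 16 and 25. Log2 values were turned back to FPKM. A change is log2(FPKM + 1), tested library minus control, which understates low genes; genes averaging 1 FPKM or more over the pair passed the filter. The tables were normalized separately, and changes were taken only within each.

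Depth came from transduced-cell values below 0.1 FPKM: 291 of 1707 genes gave a depth ratio of 1.05, and 25 of 473 single-transcript genes the mock vector depth. Estimated fragments used the longest coding transcript of GENCODE vM21, and intervals (exact Poisson, exact conditional binomial, 95%) cover counting error only. The steps were tested on simulated Poisson counts of single-transcript genes. That test leaves out shared reads and genes with several transcripts. Python 3.11.15, pandas 2.3.3, NumPy 2.4.6 and SciPy 1.17.1 were used.

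All members are named. Each list gives up to 4 genes past the size limit, or else its 2 most abundant; of these, the text leaves out some in Treg, and some genes are not reported here. Other genes named (Irf8, Mapk8, Map2k3, Plaur, Prdm1, Il10, Il1rl1, Zbtb46, other markers and chromosomal neighbours) were chosen after their values were seen, or as annotated neighbours. Members and lists were chosen with earlier results of these data known. Alternatives were pseudocounts of 0.1 and 5, a mean of at least 5 FPKM, no filter, and 3 scalings.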

Additional observations from a re-analysis of the deposited data

How the results depend on the processing

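No paired analysis was possible because each group is 1 library, and leaving out a library could not be done for the same reason. The counts of members past the 2-fold limit were 0 in both directions and both experiments under every alternative run but 1. With equal 75th percentiles 1 member, Junb, was at least 2 times lower with the Sox12 vector. At the limit of 1.5 times, a pseudocount of 5 left 0 members higher and 2 lower with the Sox12 vector. Across alternatives the change between the vectors ran from -1.03 to -0.94 for Junb, from -0.97 to -0.59 for Fos, from -0.76 to -0.46 for Atf3 and from 0.58 to 0.84 for Jun. The scalings moved the median of all genes by -0.05 to 0.05, and 1 member, Fos in Treg, changed sign. Depth limits Fosl1 most, and counting error of the Treg libraries is unknown.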
